A study of Homo sapiens with 4 samples.

Results

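IFIT1, IFIT2, IFIT3, IFIT5, AZI2, TBK1, TANK, IRF3 and SP100 are 9 genes of the innate interferon response, and their 3′ ends were followed by PAS-seq, a method that reads the tail end of mRNA and thereby locates the cleavage site of a transcript. A PAS cluster (PAC), a group of neighbouring poly(A) sites, was given to a gene when its dominant site (the position with the highest RPM in the PAC) lay on the same strand inside the GENCODE 44 span of the gene. This gave 12 PACs in 8 of the 9 genes, of 17627 PACs in 11244 genes in all. TBK1 had no PAC in any library. IFIT5 and AZI2 were selected on the change in the share of their RPM in the most distal PAC with l-lactate, 10 percentage points or more in the same direction in both cell lines, so those changes are given as a description and without a test. The other genes were taken by name.

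The 4 libraries came from KYSE30 and TE-1, established human lines of esophageal squamous cell carcinoma, each sequenced once after l-lactate and once after PBS (control). The cell line field of both controls names another line, KYSE32 or TE-3, and the groups here follow the sample titles and the methods of the study. No group had a second culture, so the p-values below do not measure variation between cultures. In the fits with line and treatment, the spread is how far the l-lactate minus control difference of a gene differed between the lines. Limma moderates that spread with the spread of all genes tested. Each group stands for a single cell line in culture, without immune cells or an infection.

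IFIT proteins are made in large amounts after interferon and bind foreign RNA. IFIT1 and IFIT5 recognise unusual 5′ ends of viral RNA, while IFIT2 and IFIT3 act partly through complexes with IFIT1. AZI2 (also called NAP1) and TANK are adaptors that bring the kinase TBK1 to the sensors of viral nucleic acid, TBK1 phosphorylates IRF3, and IRF3 then switches on interferon genes and several IFIT genes directly. SP100 is an interferon-inducible scaffold of PML nuclear bodies and has many splice forms with different last exons. A transcript with several poly(A) sites can end early or late, and the choice sets how much 3′ UTR it carries.

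The 30 nt that end at the dominant cleavage site are printed 5′ to 3′ for the sites the results turn on, read from GRCh38 with the poly(A) signal in capitals where AATAAA, its relative ATTAAA or another variant (here only CATAAA) was found in the 50 nt before the site.
IFIT5 proximal (chr10:89419895-89419924, plus strand): tccattcctccaatgtaactcttaaaatta
IFIT5 distal (chr10:89420967-89420996, plus strand): taatactctAATAAAagctgcctgagttga
AZI2 proximal (chr3:28331690-28331719, minus strand): ccctccatccAATAAAaaatactgatctga
AZI2 distal (chr3:28323536-28323565, minus strand): gaAATAAAagcatcttaggttataccatct
IFIT1 (chr10:89403952-89403981, plus strand): aactttgtaggaAATAAAacattggactta
IFIT3 (chr10:89340939-89340968, plus strand): acAATAAAtccaaacatttcaactctgtta
IRF3 (chr19:49659572-49659601, minus strand): cctcaaccAATAAActggttcctgctatga
IFIT2 span (chr10:89292096-89292125, plus strand): aacaagaAATAAActtcttttacagtgtca
SP100 first, upstream site (chr2:230470331-230470360, plus strand): gtagaagaAATAAAtagcaaatttgtggta
SP100 first, downstream site (chr2:230470489-230470518, plus strand): attatagacagaAATAAAaacttcagatca
SP100 second (chr2:230508112-230508141, plus strand): attgacccatcatCATAAAatttgatttta
SP100 last (chr2:230545568-230545597, plus strand): taAATAAAtggatcattaaaaaaaatttta

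Of these, the proximal site of IFIT5 was without a signal in the 50 nt before it, the second site of SP100 had the variant CATAAA, and each of the others had AATAAA. Among 13692 PACs in 3′ UTRs, AATAAA was found in 66.6% and ATTAAA without AATAAA in a further 16.8%. The motif TGTA, which CFIm (the complex that holds NUDT21) binds in its RNA form, occurred 2 times in the 100 nt before the proximal site of IFIT5 and was not found before its distal site or before either AZI2 site. It occurred in 58.0% of the 3′ UTR PACs over the same window. A letter match is not evidence that a protein binds there.

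The position of the sites differed between IFIT5 and AZI2. Both IFIT5 PACs lay in the last exon of the same annotated transcript, 1279 nt and 2351 nt into a 3′ UTR of 2352 nt. Within that transcript the proximal and distal ends of IFIT5 differ in 3′ UTR length alone. The exons upstream of each end were not measured. The AZI2 PACs lay in the last exons of different transcripts: the distal one 509 nt into the 3′ UTR of the canonical transcript (exon 8 of 8), the proximal one at the end of a shorter transcript, 212 nt into a 3′ UTR of 213 nt (exon 7 of 7). For AZI2 the distal share therefore measures a choice of last exon rather than a longer form of the same 3′ UTR. The distal AZI2 PAC lies inside CMC1 on the opposite strand, and the libraries keep strand. The 3 PACs of SP100 also fell in the last exons of different transcripts (exon 14 of 14, 23 of 23 and 29 of 29), the last of them the canonical one. IFIT3 and IRF3 ended at the annotated end of their canonical transcripts, 843 nt and 79 nt into the 3′ UTR, whereas the IFIT1 PAC lay 272 nt into a 3′ UTR of 2777 nt.

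Depth was 7174991 to 10393799 tags a library, and levels are given in RPM, the tags of a PAC scaled to the total tags of its library. The lowest RPM listed was 1.06 to 1.12, which is 8 to 11 tags, and a PAC made of 1 single position was listed only from about 3.07 to 3.10 RPM, so a gene that is not listed is below these limits and not shown to be absent. All 5 general epithelial markers had a PAC, but CDH1 and KRT19 were listed in TE-1 cells at 1.30 and 2.95 RPM with l-lactate only, against 204 to 228 and 1574 to 1699 RPM in KYSE30 cells. Of 9 squamous markers, KRT5, KRT14, TP63 and DSG3 had no PAC in either line, KRT13, SOX2 and KRT6A were listed in KYSE30 cells alone and KRT17 in TE-1 cells alone, while PERP was listed in both lines, with 331 to 343 RPM in KYSE30 and 101 to 143 RPM in TE-1 cells. None of 5 immune markers had a PAC, and of 5 fibroblast and endothelial markers COL1A1 and DCN were listed in TE-1 cells alone, with a summed level of 8.50 and 12.5 RPM.

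IFIT5 transcripts ended at the distal site less often in the l-lactate library of each line. The distal share of IFIT5 was 26.8% with l-lactate (38 of 142 tags, Wilson 95% interval 20.2 to 34.6) and 42.0% in the control (50 of 119, 33.5 to 51.0) in KYSE30 cells. It was 37.6% with l-lactate (62 of 165, 30.5 to 45.2) and 51.4% in the control (89 of 173, 44.05 to 58.8) in TE-1 cells. The l-lactate library was the lower of the pair in both lines: l-lactate minus control was -15.3 points for KYSE30 (Newcombe 95% interval -26.4 to -3.72) and -13.9 points for TE-1 cells (-24.03 to -3.27). The intervals cover counting error only. Among genes that could be measured, 5.98% of 1656 in KYSE30 and 5.05% of 1662 in TE-1 cells lost 10 points or more, and IFIT5 ranked 48 and 79 by the size of its change.

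Counted over whole PACs, the RPM difference was larger at the proximal PAC of IFIT5 than at the distal one. The proximal PAC of IFIT5 had 14.5 RPM with l-lactate and 9.29 RPM without it in KYSE30, against 12.2 and 8.08 RPM for TE-1 cells, ratios of 1.56 (counting interval 1.14 to 2.15) and 1.505 (1.12 to 2.03). The distal PAC had 5.30 and 6.73 RPM in KYSE30 and 7.32 and 8.56 RPM in TE-1 cells, ratios of 0.79 (0.50 to 1.22) and 0.85 (0.61 to 1.20). These ratios are parts of the distal share that IFIT5 was selected on and are a description. At its dominant site alone the proximal PAC had 10.6 RPM with l-lactate and 9.29 RPM in the control in KYSE30 cells. In TE-1 cells it had 8.86 and 8.08 RPM there. Counted this way, the proximal difference was smaller than the distal one in both lines.

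The extra RPM of the proximal PAC was partly outside its dominant site. In both controls every listed tag of this PAC was at the dominant site (69 of 69 in KYSE30 and 84 of 84 in TE-1 cells). With l-lactate 28 tags in each line, 3.90 and 3.31 RPM, were at other positions. These values are near the 3.07 to 3.10 RPM from which a PAC of a single position was listed. Whether that limit left out tags at other positions in the controls was not tested. The upper quantile position of this PAC was 89420226 in all 4 libraries, 303 nt across, also in the controls whose RPM was wholly at the dominant site. Such a PAC, wider than 1 nt with its whole RPM at a single site, made up 1.499% to 2.33% of the PACs with their whole RPM at the dominant site in a library. With the proximal PAC counted at its dominant site alone, the IFIT5 change was -8.68 points in KYSE30 cells (-20.7 to 3.74) and -6.19 points in TE-1 cells (-17.1 to 4.97), and neither then reached 10 points. With both IFIT5 PACs counted at their dominant sites alone, it was -10.6 points in KYSE30 cells (-22.6 to 1.89) and -9.67 points in TE-1 cells (-20.9 to 2.05). Both ways of counting were added after the values were seen. No poly(A) signal was found in the 50 nt before position 89420226 either.

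AZI2 transcripts ended at the distal site more often in the l-lactate library of each line. The distal share of AZI2 was 58.8% with l-lactate (104 of 177 tags, 51.4 to 65.7) and 43.6% in the control (75 of 172, 36.4 to 51.1) in KYSE30 cells. It was 60.6% with l-lactate (203 of 335, 55.3 to 65.7) and 48.5% in the control (200 of 412, 43.8 to 53.4) in TE-1 cells. The l-lactate library was the higher in both lines, by 15.2 points in KYSE30 cells (4.66 to 25.2) and 12.1 points in TE-1 cells (4.87 to 19.0), and the last exon of the canonical transcript thus held more than an equal share of AZI2 ends in both l-lactate libraries. A gain of 10 points or more was seen in 3.38% of genes in KYSE30 and 6.32% in TE-1 cells, and AZI2 ranked 51 and 111 by size.

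The distal PAC had 14.5 RPM with l-lactate against 10.1 in the control in KYSE30 and 23.97 against 19.2 RPM in TE-1 cells, ratios of 1.44 (1.06 to 1.96) and 1.25 (1.02 to 1.52). The proximal PAC, a single position, had 10.2 against 13.1 RPM and 15.6 against 20.4 RPM, ratios of 0.78 (0.57 to 1.07) and 0.76 (0.61 to 0.95). Counted at the dominant sites alone, the AZI2 change was 11.8 points in KYSE30 cells (0.30 to 23.1) and 13.2 points in TE-1 cells (5.01 to 21.2), and so was still past 10 points.

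Of 1271 genes measured in both lines, 31 changed by 10 points or more the same way, 16 towards the distal PAC and 15 away from it. Just inside that limit was PWWP3A, with 10.2 points in KYSE30 and 17.8 in TE-1 cells, and just outside it was SNTB2, with -17.2 and -9.90 points.

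The last PAC of SP100, at the end of the canonical transcript, was listed in KYSE30 cells alone. That PAC had 5.16 RPM with l-lactate and 4.58 RPM in the control, which was 11.1% of SP100 tags (37 of 334, 8.14 to 14.9) and 9.69% (34 of 351, 7.01 to 13.2), a difference of 1.39 points (-3.21 to 6.05). The second PAC, 98 nt into the 3′ UTR of another transcript, had 3.07 and 5.12 RPM in KYSE30 cells. Neither PAC was listed in TE-1 cells, where the first PAC held all listed SP100 RPM (17.1 and 17.7 RPM, against 38.3 and 37.6 RPM in KYSE30 cells).

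Limma on the log2 odds of distal usage, with treatment as a covariate and PACs that were not listed taken as 0, called 19.6% of 2058 genes between the lines and 13.2% as more distal in KYSE30 cells. SP100 was among the latter (Benjamini-Hochberg adjusted p = 0.0263), but it entered the test through KYSE30 cells alone. At the mean share of KYSE30 cells, 10.4%, the SP100 level of TE-1 cells would place 1.78 and 1.84 RPM in the last PAC, under the RPM from which a single position was listed. The files could therefore not show this PAC in TE-1 cells at the KYSE30 share, and no line difference is drawn from the call. With any 1 of the 4 libraries left out, 0 of the 2058 genes were called and the fitted SP100 difference was 2.07 to 2.27 on the log2 odds scale against 2.17 with all 4. The genome after the last SP100 site had 7 A in 10 nt, which 1.45% of 3′ UTR PACs reach, and its part in the result was not tested.

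Between the lines, the mean distal share of IFIT5 was 34.4% in KYSE30 and 44.5% in TE-1 cells, and that of AZI2 was 51.2% and 54.6%. At the same treatment the KYSE30 library was the lower for both genes, and the values of the lines overlapped for both. No test is given, since the spread it would use comes from the l-lactate changes on which both genes were selected.

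**Figure D1:**
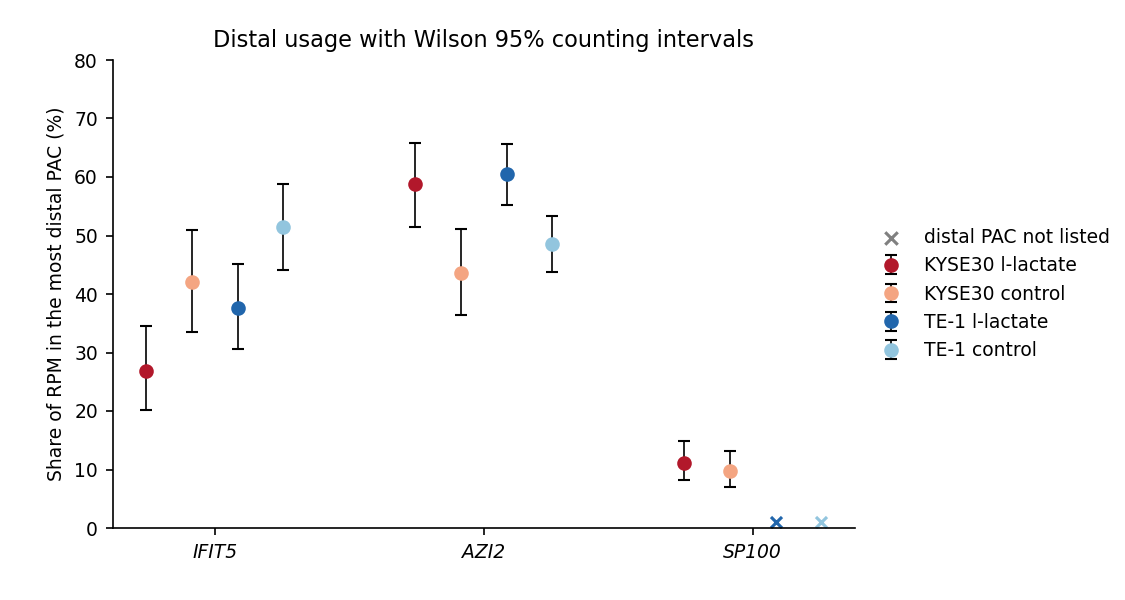
Share of the RPM of a gene in its most distal PAC (percent, vertical axis) for IFIT5, AZI2 and SP100 in the 4 libraries, with points for single libraries, bars for Wilson 95% intervals (counting error) and crosses where the distal PAC was not listed. IFIT5 lies lower with l-lactate than in the control of each line (26.8% against 42.0% and 37.6% against 51.4%), AZI2 lies higher (58.8% against 43.6% and 60.6% against 48.5%), and the SP100 distal PAC was listed in KYSE30 cells alone.

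SP100 and IRF3 had higher levels in KYSE30 cells, AZI2 and IFIT1 had higher levels in TE-1 cells, and IFIT3 and IFIT5 did not pass the test between the lines. Gene levels were RPM summed over the PACs of a gene, compared between the lines by limma on log2(RPM + 1) with treatment as a covariate, in genes with 5 RPM or more in at least 2 libraries. All p-values for levels are Benjamini-Hochberg adjusted over 9670 genes, of which 74.2% passed an adjusted p of 0.05 between the lines (37.4% higher in KYSE30 and 36.9% in TE-1 cells), so a call for a single gene is common here. A lower RPM in a line cannot be told apart from fewer cells that express the gene.

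SP100 had 46.6 RPM with l-lactate and 47.3 RPM in the control in KYSE30 and 17.1 and 17.7 RPM in TE-1 cells. Both KYSE30 libraries were above both TE-1 libraries, 2.69-fold on the means and 1.38 ± 0.12 on the log2(RPM + 1) scale (adjusted p = 1.19e-05). The KYSE30 sums include the second and last PACs, which were not listed in TE-1 cells and were taken as 0 there. The first PAC alone had 38.3 and 37.6 RPM in KYSE30 against 17.1 and 17.7 RPM in TE-1 cells. IRF3, the transcription factor that TBK1 phosphorylates, had 53.0 and 61.8 RPM in KYSE30 and 27.9 and 32.4 RPM in TE-1 cells, 1.90-fold higher in KYSE30 cells (0.91 ± 0.11, adjusted p = 6.40e-05). The groups did not overlap for IRF3, but without the KYSE30 control or without the TE-1 l-lactate library its adjusted p was 0.0566 or 0.0506, with a log2 difference of 0.80 in each case.

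AZI2 and IFIT1 were higher in TE-1 cells. AZI2 had 24.7 RPM with l-lactate and 23.2 RPM in the control in KYSE30 and 39.6 RPM in each TE-1 library, 1.66-fold higher in TE-1 cells (-0.70 ± 0.12 for KYSE30 minus TE-1, adjusted p = 7.26e-04). IFIT1 had 31.8 and 16.97 RPM in KYSE30 and 52.3 and 45.3 RPM in TE-1 cells, 2.00-fold higher in TE-1 cells (-1.03 ± 0.16, adjusted p = 4.41e-04). The KYSE30 libraries differed most for IFIT1, and its call was lost without the KYSE30 control (-0.60, adjusted p = 0.0767), the TE-1 l-lactate library (-0.93, 0.250) or the TE-1 control (-1.14, 0.193).

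IFIT3 and IFIT5 did not pass. IFIT3 had 12.4 and 14.1 RPM in KYSE30 and 15.5 and 19.9 RPM in TE-1 cells (-0.38 ± 0.16, adjusted p = 0.0596). IFIT5 had 19.8 and 16.03 RPM in KYSE30 and 19.5 and 16.6 RPM in TE-1 cells (-0.01 ± 0.15, adjusted p = 0.935). The l-lactate libraries of the lines thus lay next to each other and so did the controls. That pattern rests on 3.90 and 3.31 RPM outside the dominant site of the proximal PAC with l-lactate, against 0 RPM in the controls. The comparison with other genes that follows includes this RPM. The genes whose level pattern over the 4 libraries was nearest to that of IFIT5, by Euclidean distance of centred log2(RPM + 1) among 9670 genes, were GALK2 (0.0348), EDEM2 (0.0522) and ZBTB43 (0.0621).

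Within a line, the order of levels in KYSE30 cells was IRF3, SP100, the IFIT2 span, IFIT1 or AZI2, IFIT5 and IFIT3, with IFIT1 above AZI2 with l-lactate and below it in the control. In TE-1 cells IFIT1 was above AZI2, IRF3 came next, and IFIT5, SP100 and IFIT3 lay between 15.5 and 19.9 RPM with an order that differed between the 2 libraries. PAS-seq counts 3′ ends and has no length correction, so these RPM compare ends per library and not amounts per nt.

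TANK and TBK1 were at or below the limit of detection. TANK had a single PAC, 657 nt into a 3′ UTR of 672 nt on chromosome 2 at position 161236172, with 3.10 RPM (23 tags) in the KYSE30 control and no listing in the other 3 libraries. As a single position it was at the lowest RPM that such a PAC can have in that library, so its absence elsewhere gives no direction. No PAC lay within 10000 nt past the end of TBK1 or of any other gene of the set.

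**Figure D2:**
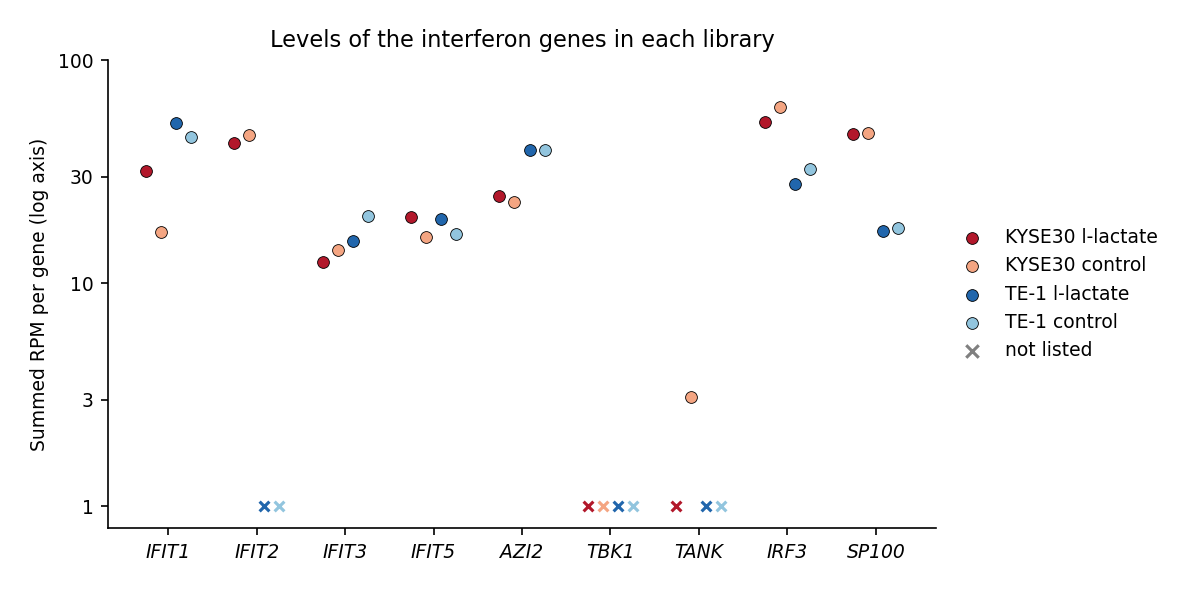
Summed RPM of each gene (vertical log axis) in the 4 libraries, with a point for each library and a cross at the foot where the gene was not listed. IRF3 and SP100 lie higher in both KYSE30 libraries, AZI2 and IFIT1 lie higher in both TE-1 libraries, and IFIT5 lies between 16.03 and 19.8 RPM in all 4.

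The signal in the IFIT2 span was not at the end of the IFIT2 mRNA. The span held 1 PAC, at chr10:89292123-89292125, with 42.4 RPM with l-lactate and 46.1 RPM in the control in KYSE30 and no listing in TE-1 cells. It overlapped no IFIT2 exon, lay in an intron of the gene, and its dominant site, 89292125, was the annotated last base of ENSG00000232110, a long noncoding RNA on the same strand that starts upstream of IFIT2. The annotated end of IFIT2 is at 89309271, and no PAC was listed there. These RPM are therefore given for the IFIT2 span and not as the level of IFIT2 mRNA. The difference between the lines passed the limma test through the KYSE30 libraries alone, and no fold can be given against TE-1 cells.

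IFIT1 was the one gene of the set past 1.5-fold with l-lactate, and in KYSE30 cells only. Its RPM ratio was 1.87 in KYSE30 cells (counting interval 1.5 to 2.35) and 1.15 in TE-1 cells (1.01 to 1.32). Past 1.5-fold with l-lactate were 2.04% of genes upward and 2.35% downward in KYSE30, against 2.67% and 1.76% in TE-1 cells. Across both lines the IFIT1 difference was 0.54 ± 0.16 on the log2(RPM + 1) scale (limma with line as a block, adjusted p = 0.417), and the adjusted p was 0.0358 with a pseudocount of 5 in place of 1. Whether the IFIT1 ratio differs between the lines was not tested.

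For l-lactate the same limma fit called 0 of 9670 genes (0.0%), with 921 genes (9.52%) at an unadjusted p under 0.05, and no count-based test was run. IFIT3, IRF3 and SP100 were not called. IFIT3 had ratios of 0.88 in KYSE30 cells (0.65 to 1.17) and 0.78 in TE-1 cells (0.62 to 0.97). IRF3 had ratios of 0.86 in both lines (0.75 to 0.98 and 0.72 to 1.02), with a difference of -0.22 ± 0.11 (adjusted p = 0.560). SP100 had ratios of 0.98 (0.85 to 1.15) and 0.97 (0.77 to 1.21), and the IFIT2 span had 0.92 (0.79 to 1.08) in KYSE30 cells.

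The levels of IFIT5 and AZI2 are also given without a test. The summed RPM ratio of IFIT5 was 1.23 in KYSE30 cells (0.96 to 1.59) and 1.17 in TE-1 cells (0.94 to 1.46), and that of AZI2 was 1.07 (0.86 to 1.32) and 1.00 (0.86 to 1.16). Each of these intervals includes 1, so neither line alone showed a change in the number of 3′ ends of IFIT5 or AZI2 beyond counting error. Both IFIT5 ratios lay above 1, and the counts of the lines were not combined. The l-lactate sums of IFIT5 include 3.90 RPM in KYSE30 and 3.31 RPM in TE-1 cells outside the dominant site of its proximal PAC. Both controls had 0 RPM there, and without this RPM neither l-lactate sum would lie above its control. It is near the RPM from which a PAC of a single position was listed.

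**Figure D3:**
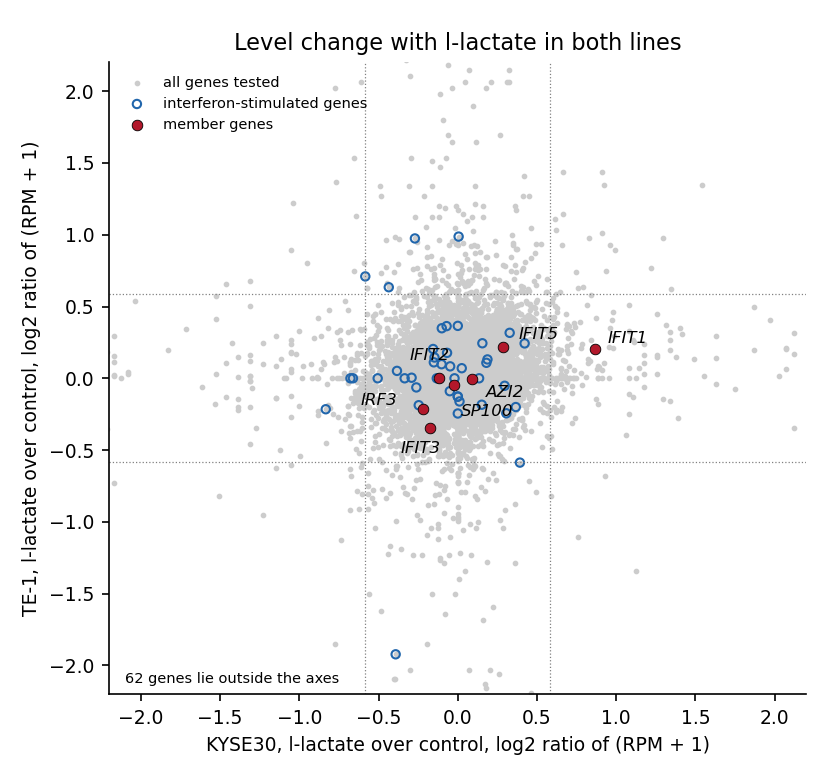
Log2 ratio of RPM + 1, l-lactate over control, in KYSE30 (horizontal) and TE-1 cells (vertical), with tested genes as small grey points (62 lie outside the axes), listed interferon-stimulated genes as open circles and the 7 tested genes of the set as filled labelled points. Dotted lines mark 1.5-fold, genes not listed in a line sit at 0 for it, and IFIT1 is the only filled point past a dotted line, at 0.87 in KYSE30 and 0.20 in TE-1 cells.

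Related genes were taken from lists set by function. Of 14 nucleic acid sensors and adaptors, 9 had a PAC and 7 were tested: 5 were higher in KYSE30 cells, none in TE-1 cells, and 2 did not pass, beside 37.4% and 36.9% of all genes tested that were higher in KYSE30 and in TE-1. These shares of all genes also stand behind the counts of the lists that follow. The difference was largest for TLR3, the endosomal sensor of double-stranded RNA, which had 5.85 and 7.003 RPM in KYSE30 cells, was not listed in TE-1 cells and so passed the filter through KYSE30 alone. It was followed by STING1, the adaptor of the cytosolic DNA sensor cGAS, with 78.5 and 98.2 RPM in KYSE30 and 12.2 and 12.3 RPM in TE-1 cells (log2 difference 2.75), and MAVS, the adaptor of the RNA sensors, with 81.8 and 98.8 against 27.2 and 28.6 RPM (1.66). The median log2 difference of the list was 0.48, against 0.00 over all genes tested.

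Among 21 genes around TBK1 and the IRF factors, 12 were tested, of which 4 were higher in KYSE30 cells, 4 in TE-1 cells and 4 did not pass. The transcription factors IRF1 (log2 difference 1.83) and IRF2 (1.62) were higher in KYSE30 cells, as was IRF3 above, and IKBKB was too (0.38). IRF2 had 13.7 and 12.9 RPM in KYSE30 and 4.72 and 2.79 RPM in TE-1 cells, so it passed the filter through KYSE30 alone. TRAF3 (-0.73), which links MAVS to TBK1, CHUK (-0.67) and SIKE1 (-0.47), a suppressor of TBK1 and its relative IKBKE, were higher in TE-1 cells, as was the adaptor AZI2. With l-lactate, 1 of these 12 genes was past 1.5-fold, IRF2 in TE-1 cells, with 4.72 RPM against 2.79 RPM in the control. These values are low, and 2.67% of all genes were past 1.5-fold upward in TE-1 cells. None of the 12 was past it in both lines.

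Of 18 interferon receptor and JAK-STAT genes, all 10 that were tested passed, 4 higher in KYSE30 and 6 in TE-1 cells. The receptor chains IFNAR2 (-1.84), IFNGR2 (-1.18) and IFNAR1 (-1.15) were higher in TE-1 cells, while the transcription factor IRF9 (1.36) and the kinase JAK1 (0.96) were higher in KYSE30 cells. The list median was -0.55. With l-lactate, 1 of the 10 was past 1.5-fold, IFNAR1 in KYSE30 cells (12.3 RPM against 6.06 in the control), where 2.04% of all genes were past it upward.

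Of 68 interferon-stimulated genes outside the set, 46 had a PAC and 42 were tested, 16 higher in KYSE30 cells, 20 in TE-1 cells and 6 not passing, with a list median of -0.03. GBP3, SAMD9L and GBP2, restriction factors against intracellular pathogens, had 9.48 to 17.2 RPM in KYSE30 and were not listed in TE-1 cells. PSMB8, an immunoproteasome subunit, had 157 and 122 RPM in TE-1 cells and BST2, a tether of budding virus, 78.5 and 85.9 RPM, and neither was listed in KYSE30 cells. GBP3, SAMD9L, GBP2, PSMB8 and BST2 each passed the filter only through the line that listed it. IFITM2, which blocks viral entry, had 2.51 and 5.25 RPM in KYSE30 and 221 and 256 RPM in TE-1 cells (-5.67). With l-lactate, none of the 42 genes was past 1.5-fold in the same direction in both lines. In KYSE30 cells 0 were higher and 3 lower, where 2.04% and 2.35% of all genes were, and in TE-1 cells 4 were higher and 2 lower, where 2.67% and 1.76% of all genes were.

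Among 10 partners of SP100 in PML nuclear bodies, 8 were tested, 3 higher in KYSE30 cells, 2 in TE-1 cells and 3 not passing. SP140L, a relative of SP100 (log2 difference 2.27), and PML itself (1.24) were higher in KYSE30 cells with SP100. DAXX (-2.34) and HIRA (-1.98), histone chaperones, were higher in TE-1 cells, and HIRA was not listed in the KYSE30 control. In KYSE30 cells DAXX had 3.62 RPM with l-lactate and 3.77 RPM in the control, and HIRA had 3.76 RPM with l-lactate. Both genes therefore passed the filter of 5 RPM through TE-1 cells alone.

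**Figure D4:**
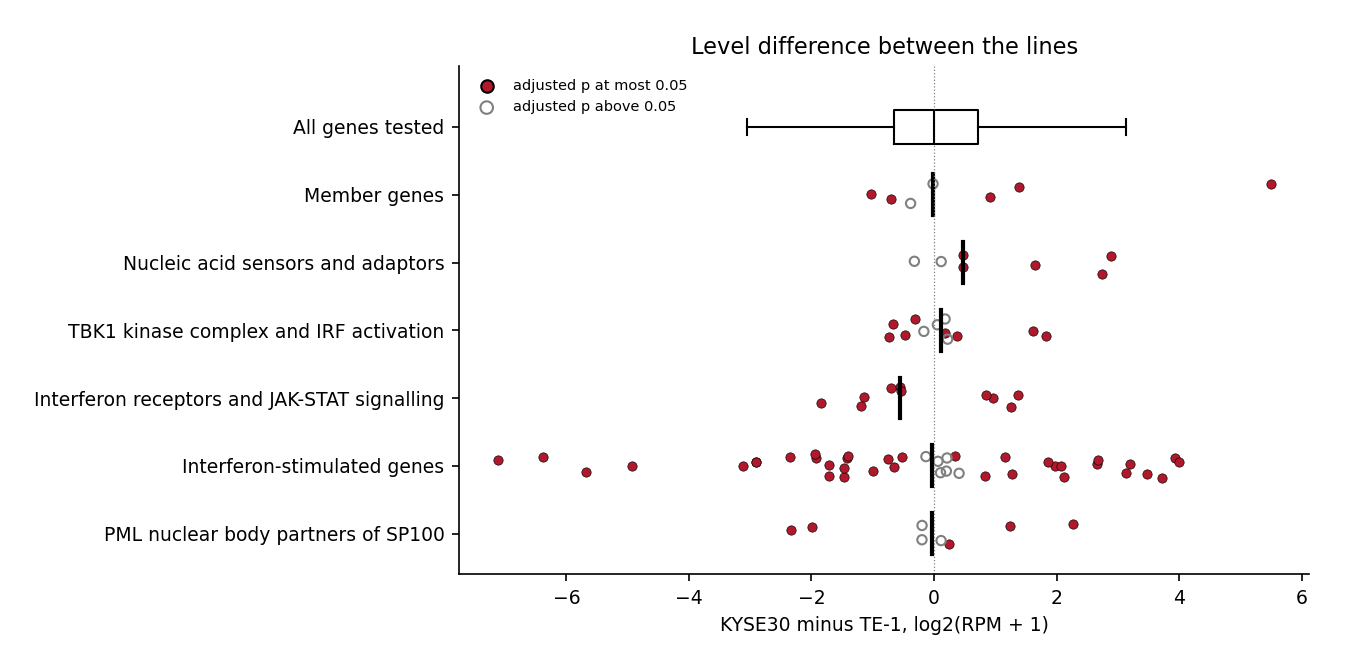
Level difference between the lines (KYSE30 minus TE-1, log2(RPM + 1), horizontal axis) for all tested genes (box: quartiles and median, whiskers: 5th and 95th percentiles), the genes of the set and each list of related genes, with a point for each gene, filled where the adjusted p was at most 0.05, and a bar at the median of each row. SP100 (1.38) and IRF3 (0.91) lie to the right and IFIT1 (-1.03) and AZI2 (-0.70) to the left, and the point at 5.50 is the PAC in the IFIT2 span, which was not listed in TE-1 cells.

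IFIT1, IFIT3 and IFIT5 have the core of the interferon-stimulated response element in their promoters. The core was searched as GAAANNGAAA on either strand from 250 nt before to 50 nt after each gene start in RefSeq promoters (GRCh38.p14), with overlaps allowed. It was found in 3.57% of 35116 promoters, in 62.0% of 71 promoters of the listed interferon-stimulated genes and in 4 of the 10 promoters matched to the set, which are those of IFIT1, IFIT3 and IFIT5. AZI2, TANK, TBK1 and SP100 promoters held no match in this window, and IFIT2 and IRF3 were not matched to a promoter. With all 4 libraries the level of IFIT1 was called between the lines and that of IFIT5 was not. The IFIT1 call was lost when some single libraries were left out. Whether the motif has a part in these levels was not tested. The 30 nt around 1 match each are shown for IFIT1 and for IFIT5, with the motif as read on the plus strand in capitals.
IFIT1 (chr10:89392497-89392526, plus strand): ctagctttagTTTCACTTTCccctttcggt
IFIT5 (chr10:89414513-89414542, plus strand): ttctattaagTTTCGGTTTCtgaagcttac
The IFIT1 promoter held 2 matches and the IFIT5 promoter 3.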

How the data were processed

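PAS-seq of 4 libraries (KYSE30 and TE-1 cells, l-lactate or PBS, 1 library each) was analysed. Per the methods of the study, the authors aligned reads to GRCh38 with HISAT2, called poly(A) sites with CAGEr, dropped low sites and joined neighbours into PACs. The labels name GRCh38.p14. The deposited values are RPM (tags scaled to the library total, called TPM by the authors, with no length correction) for each PAC and its dominant site. Steps between RPM values gave the tags per library, used for Wilson, Newcombe and exact conditional binomial 95% intervals, which cover counting error only.

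PACs were joined across libraries by cluster and placed by dominant site on GENCODE 44. A PAC not listed was taken as 0. Levels were log2(RPM + 1) in genes of 5 RPM or more in at least 2 libraries. Distal usage was the share of RPM in the most distal 3′ UTR PAC, in genes with 2 or more such PACs above 5 RPM, and its log2 odds had 0.5 RPM added to each side. Both were fitted by limma 3.58.1 (R 4.3.3) on all libraries with line and treatment as terms, which leaves 1 residual degree of freedom, with Benjamini-Hochberg adjustment. The fits were tested on simulated data first. Within a line, changes were called from 1.5-fold or 10 points, without a test. Other tools were Python 3.11.15, pandas 2.3.3, SciPy 1.17.1 and matplotlib 3.10.9.

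The genes and lists were chosen with earlier results of these data known. Named from each list are up to 3 genes with the largest difference in each direction between the lines at an adjusted p of at most 0.05, and for l-lactate up to 2 past 1.5-fold the same way in both lines, of which there were none. Some genes that this rule names are not reported here. IRF2 and IFNAR1 with l-lactate were named after their values were seen. Alternatives changed the pseudocount, filters, scaling, thresholds, PAC choice, covariate and libraries. The planned count-based tests were not run, since the deposited RPM were not accepted as counts.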

Additional observations from a re-analysis of the deposited data

Results flagged for a closer look

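The l-lactate over control log2 ratio of the AZI2 level was 0.0872 in KYSE30 and -0.00295 in TE-1 cells, which differ in sign, and both lie within counting error of 0. The difference between the lines was not tested.

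The dominant site of the first SP100 PAC lay 158 nt upstream with l-lactate relative to the control in KYSE30 cells (-158) and 158 nt downstream in TE-1 cells (158). The PAC holds both sites printed above, each with AATAAA before it, and the dominant one held 30.2% and 29.4% of its RPM in KYSE30 cells (l-lactate, control) and 35.2% and 38.6% in TE-1 cells. The difference between the lines was not tested, and the tags of the site that was not dominant are not used here.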

How the results depend on the processing

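Of the results recomputed under other settings, summary counts stayed within 1.5 times, or distal changes within their counting interval, in 104 cases and not in 29. For l-lactate levels, 123 genes were called with a pseudocount of 5 and 1 with 3′ UTR PACs alone, and IFIT1 in KYSE30 cells was no longer called from 2-fold (0 genes of the set). Leaving out each library in turn gave 2102 to 2533 genes higher in KYSE30 and 2153 to 2442 in TE-1 cells, with 2 to 3 and 1 to 2 genes of the set, and 0 genes called for distal usage between the lines (0 of the set). With a minimum of 1 RPM a PAC, 0 of 2825 genes, and with 10 RPM 0 genes of the set, were called for distal usage between the lines. For distal usage with l-lactate, a threshold of 20 points called 0 genes of the set in each line, a minimum of 10 RPM called 1 (AZI2) in each line and left IFIT5 unmeasured, dominant sites alone called 1 (AZI2) in TE-1 cells, and proximal PACs alone at their dominant site called 1 (AZI2) in each line. The last 2 ways of counting were added after the data were seen. Without 1 library, the IFIT5 level difference ran from -0.16 to 0.13 (log2, 0.09 without the TE-1 l-lactate library) and the AZI2 distal difference from -0.62 to 0.23 (log2 odds, 0.15 without that library). The causes were not tested. IFIT3 passed between the lines with a pseudocount of 5 (adjusted p = 0.0375).

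Libraries of a line share no number beyond line and treatment. Without the treatment or line as a block, 3 and 2 genes of the set were called between the lines, 1 for distal usage and 0 genes for l-lactate, and no call of the set changed. Median-ratio and TMM scaling factors lay between 0.986 and 1.016. The planned count-based tests were not run. Depth limits TANK, TBK1 and the SP100 distal PAC, which lie near or under the lowest listed RPM. The RPM outside the dominant site of the proximal IFIT5 PAC is also near the limit for a single position.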
